A study of Mus musculus with 24 samples.

Results

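Hearts of mice that carry both a cardiac OGT transgene and a cardiac OGA transgene were set against hearts of wild-type mice, gene by gene. The double transgenic genotype is written OGT_TG_x_OGA_TG in the labels and is called DTG here, and the wild type, which carries no transgene, is called WT. The hearts were chosen by the genotype that ends their column name in the deposited heart table, which gave 6 DTG and 6 WT hearts out of 24 hearts in all. Each group had 3 males and 3 females. The other hearts, 6 with the OGT transgene alone (OGT_TG) and 6 with the OGA transgene alone (OGA_TG), again 3 males and 3 females each, shared the statistical fit and are used below only beside DTG. All mice were untreated adults of the C57BL/6J strain. The promoter that drives each transgene, the number of founder lines and the age in weeks are not given in the sources used here, and the labels say only that expression is cardiac specific.

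O-GlcNAc is a single sugar, N-acetylglucosamine, that is attached to serines and threonines of nuclear, cytoplasmic and mitochondrial proteins. OGT attaches it, using UDP-GlcNAc made by the hexosamine pathway, and OGA takes it off again. Cells are known to adjust the mRNA of both enzymes to the amount of the modification. In heart muscle, proteins of contraction, calcium handling, metabolism and transcription are known to carry it, and DTG hearts received an excess of both enzymes at once.

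Each value is the FPKM of a gene (fragments per transcript length and library size) in poly(A)-selected RNA of 1 whole heart. A difference is DTG minus WT on the log2(FPKM + 1) scale, on which changes of weakly expressed genes are understated. It was tested with limma in all 24 hearts, and a gene was called at an adjusted p under 0.05. Relative depth, estimated from the spacing of the lowest values, ran from 0.677 to 0.878 of the deepest heart in DTG and from 0.695 to 1.0 in WT. The sum of FPKM was 463500 to 501485 in DTG hearts and 489563 to 513602 in WT hearts. The first principal component of the 12 hearts, with 37.4% of their variance, had all DTG hearts on one side and all WT hearts on the other. DTG replicate 6 stood apart from the other DTG hearts on the second component (a score of 24.7, against -9.29 to 7.95 in the other 5). Rows of all 16 ventricular cardiomyocyte markers found in the table were above the expression minimum, and markers of lung, thymus and liver summed to at most 1.69 FPKM in any DTG heart and 0.569 FPKM in any WT heart.

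The table has 2 rows, OGT and OGA, in the capitals of human symbols, which are read here as the transgenes because of that spelling and their levels. They were among the most abundant rows of the DTG hearts. OGT had a lowest, median and highest value of 3986, 4716 and 5261 FPKM in DTG hearts, against 0.415, 1.16 and 3.44 FPKM in WT hearts. OGA had 3065, 3432 and 3922 FPKM in DTG hearts, and in WT hearts it was listed at 0 in 4 hearts and at 0.0160 and 0.0222 FPKM in the others. No DTG heart came near a WT heart in either row. The exact two-sided permutation test over the 924 splits of 12 hearts gave p = 0.00216 for each, the smallest it allows (0.00289 adjusted over 4 rows). Together both rows held 1.454% to 1.92% of all FPKM in DTG hearts.

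Of the endogenous mouse genes, Ogt fell and Mgea5 did not pass the test. Mouse Ogt fell to 23.3, 24.6 and 29.9 FPKM (lowest, median and highest) in DTG hearts, against 32.3, 35.4 and 41.6 FPKM in WT hearts, a difference of -0.48 log2 (SE 0.07, limma adjusted p = 0.00011). The highest DTG heart lay below the lowest WT heart. The OGT row was above 0 in all hearts without that transgene (0.356 to 1.11 FPKM in OGA_TG). Whether reads were divided between the OGT row and mouse Ogt was not tested. Mgea5, the mouse gene for OGA, had 42.9, 46.6 and 55.7 FPKM in DTG hearts and 36.6, 41.1 and 48.6 FPKM in WT hearts. These ranges overlapped, and the difference of 0.18 log2 (SE 0.12) did not pass with limma (adjusted p = 0.32) or by exact permutation (p = 0.0823). Mouse Ogt was lower in DTG than in either single transgenic genotype, at 25.5 ± 2.59 FPKM in DTG, 31.6 ± 2.59 FPKM in OGT_TG and 41.6 ± 3.70 FPKM in OGA_TG (SD, n = 6 each). The limma adjusted p was 0.0034 against OGT_TG and 6.9e-07 against OGA_TG. Mgea5 averaged 47.7 ± 5.14 FPKM in DTG hearts, 54.7 ± 10.9 FPKM in OGT_TG hearts and 24.7 ± 3.44 FPKM in OGA_TG hearts (SD, n = 6 each). Of 17 genes of O-GlcNAc cycling and hexosamine synthesis, all above the minimum, 0 rose and 3, Ogt included, fell in DTG hearts (17.6%, against 11.4% of all rows). Among them was Gfpt1, the rate-limiting enzyme of hexosamine synthesis, at 5.87 ± 0.707 FPKM in DTG and 7.50 ± 0.567 FPKM in WT (SD, n = 6; -0.31 log2, limma adjusted p = 0.0053). With FPKM rescaled in the 3 other ways given below, 2 genes of this list fell each time.

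Apart from the transgenes, D830015G02Rik and Vmn1r220 had the largest differences of all tested rows. The row D830015G02Rik, whose RefSeq name is Mhrt, is a long noncoding RNA of the myosin heavy chain locus. It lies at chr14:54968678-54974349 (+) on mm10 by the GENCODE M21 annotation, beside Myh6 (chr14:54941921-54966927, -), and overlaps Myh7 (chr14:54970684-54994626, -) over 3666 bases on the other strand. It was excluded by the naming rule and was chosen after its values were seen. It had a lowest, median and highest value of 994, 1476 and 1675 FPKM in DTG hearts, against 126, 154 and 203 FPKM in WT hearts (3.16 log2, SE 0.22, limma adjusted p = 9.2e-10). The mean was 497 ± 212 FPKM in OGT_TG hearts and 275 ± 22.2 FPKM in OGA_TG hearts (SD, n = 6 each), and every DTG heart lay above every heart of the other genotypes. The OGT_TG hearts had the same order in this row as in the OGT row. They ran from 214 FPKM, with OGT at 715 FPKM, to 777 FPKM, with OGT at 2691 FPKM. In OGA_TG hearts the row did not follow the OGA row. Still, all OGA_TG hearts (240 to 302 FPKM) lay above all WT hearts, though that difference did not pass (0.81 log2, limma adjusted p = 0.12). A link to either transgene was not tested, and the promoters of the transgenes are not given in the sources used here. Myh6 and Myh7 themselves share 1 joined row with the microRNA gene Mir208b, and that row did not differ detectably, at 4906 ± 575 FPKM in DTG and 4680 ± 866 FPKM in WT (SD, n = 6; limma adjusted p = 0.69). The libraries kept the strand, but the strand setting of the counting is not given in the sources used here, so reads of Mhrt and of the overlapping part of Myh7 cannot be told apart with certainty. Vmn1r220, a vomeronasal receptor gene at chr13:23178514-23187975 (-), had 4.68, 6.54 and 8.07 FPKM in DTG hearts and was listed at 0 in all 6 WT and all 6 OGT_TG hearts. It averaged 9.88 ± 1.79 FPKM in OGA_TG hearts (SD, n = 6), so it was detected in both genotypes that carry the OGA transgene.

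**Figure D1:**
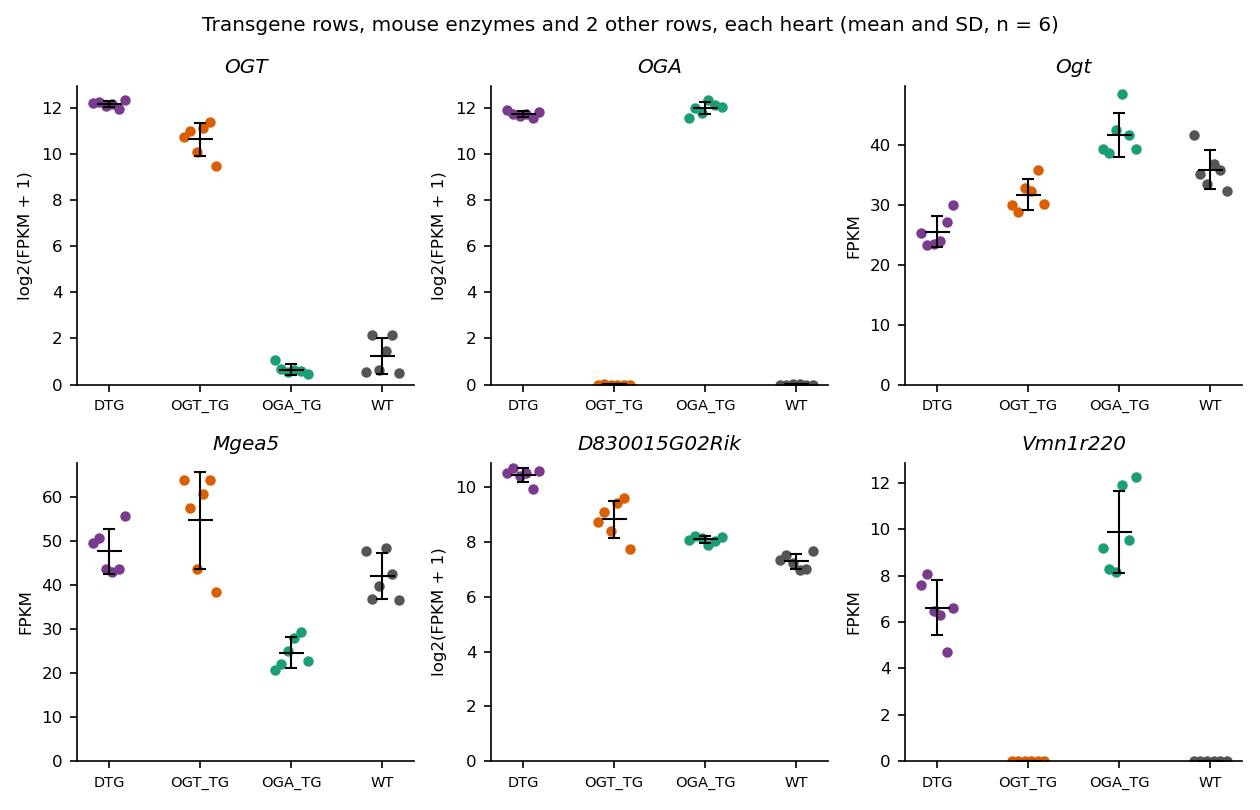
Value of each heart in 6 rows, by genotype, with the mean and SD (n = 6 each); the panels of OGT, OGA and D830015G02Rik use log2(FPKM + 1) and the others FPKM. DTG hearts had the lowest mean Ogt and the highest mean D830015G02Rik of the 4 genotypes, and Vmn1r220 was above 0 only in DTG and OGA_TG hearts.

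Of 12020 tested rows, 506 rose and 1372 fell in DTG hearts, so that 15.6% were called (4.21% as rises and 11.4% as falls). The excess of falls depended on the scale. With FPKM rescaled to an equal sum per library, 755 rose and 731 fell. With median-of-ratios scaling 751 rose and 916 fell, and with quantile normalization 686 rose and 885 fell. The median difference over all tested rows was -0.04 log2 as deposited and between -0.00 and 0.02 log2 under these scalings. Most changes were small. A change of at least 1 log2 was called in 20 rows that rose and 27 that fell. Of all tested rows, called or not, all 6 DTG hearts lay above all 6 WT hearts in 335 (2.79%) and below them in 790 (6.57%). Of these, 258 and 712 were among the called rows. Call and separation rest on the same hearts, so this overlap is no separate result.

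The genes with the largest rises and no overlap between the groups included Vmn1r220 and several genes of the extracellular matrix. Adamtsl2, a secreted protein that binds fibrillin, had a lowest, median and highest value of 8.53, 13.2 and 22.7 FPKM in DTG hearts, against 2.17, 2.78 and 5.84 FPKM in WT hearts (1.78 log2, SE 0.39, limma adjusted p = 0.0032). Wisp2 (1.58 log2), Cilp (1.52), Mfap4 (1.49), Timp1 (1.34), Itgbl1 (1.05) and Col8a1 (1.03) are likewise secreted or matrix genes. The other large rises were of varied function. Slc38a1, a glutamine transporter, had 7.99, 11.4 and 15.1 FPKM in DTG hearts and 2.74, 3.98 and 5.12 FPKM in WT hearts. The difference of 1.35 log2 (SE 0.08) had a limma adjusted p of 1.7e-10. Alpl, the tissue-nonspecific alkaline phosphatase, rose by 1.19 log2, Uchl1, a deubiquitinating enzyme, by 1.29, and Pirt, a regulator of ion channels in sensory neurons, by 1.10. Cdkn1a, the cell cycle inhibitor p21, rose by 1.01 log2, Masp1, a serine protease of the lectin complement pathway, by 1.00, and Sdc4, a heparan sulfate proteoglycan of the cell surface, by 0.96.

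The genes with large falls and no overlap between the groups were of varied function. Ces1d, a carboxylesterase that hydrolyses triglycerides, had a lowest, median and highest value of 25.0, 29.8 and 39.4 FPKM in DTG hearts, against 68.3, 96.7 and 110 FPKM in WT hearts (-1.54 log2, SE 0.32, limma adjusted p = 0.0020). No DTG heart overlapped a WT heart. Scgb1c1, a secretoglobin, fell by 1.50 log2, Asb5, a substrate receptor of a ubiquitin ligase in striated muscle, by 1.38, and Tmod4, a tropomodulin that caps actin filaments in skeletal muscle, by 1.35. Scn4b, a beta subunit of voltage-gated sodium channels, fell by 1.36 log2, Adra1a, an alpha-1 adrenergic receptor, by 1.28, Kcnip2, the channel subunit KChIP2, by 1.25, and Clcn1, a chloride channel of muscle, by 1.12. The centrosomal and ciliary genes Cep128 and Armc2 each fell by 1.29 log2, and Ttll1, a tubulin glutamylase, fell by 1.25. Acsm5, a medium-chain acyl-CoA synthetase, fell by 1.18 log2, Ano10, an anoctamin, by 1.17, and Tfpi, an inhibitor of coagulation, by 1.11. All of these falls had a limma adjusted p of at most 0.0020 and DTG hearts wholly below WT hearts.

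**Figure D2:**
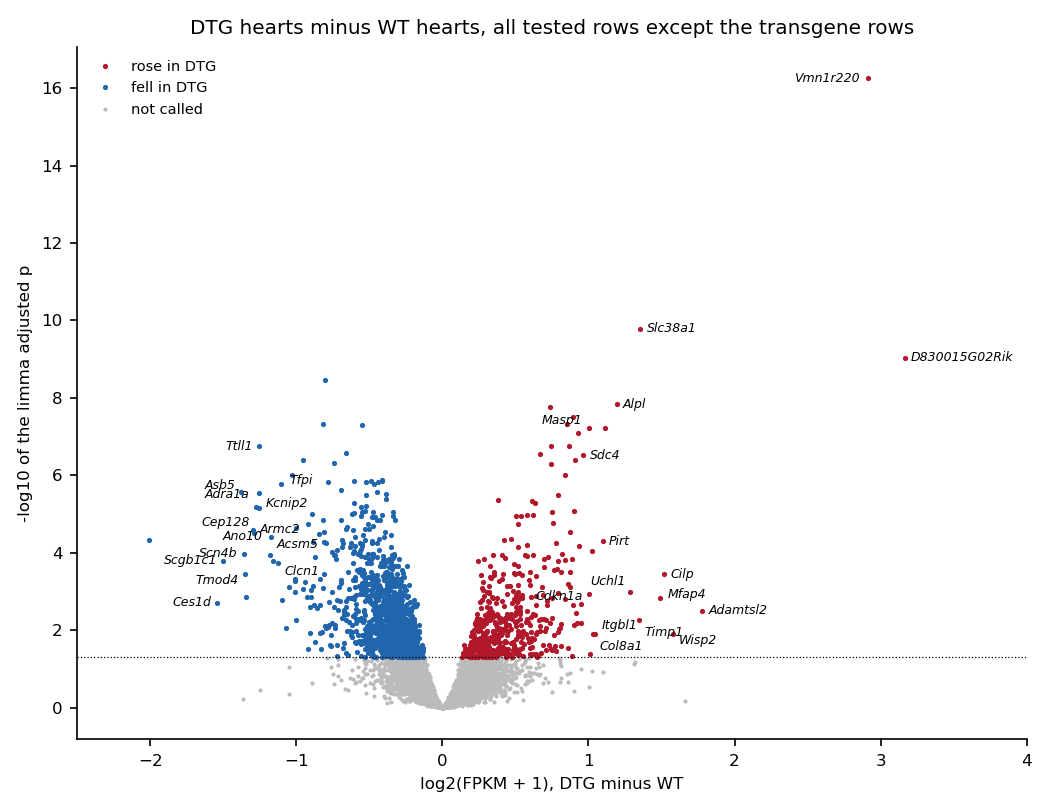
Each point is 1 tested row, with DTG minus WT on the log2(FPKM + 1) scale on the horizontal axis and the negative log10 of the limma adjusted p on the vertical axis. The transgene rows are left out, the dotted line marks an adjusted p of 0.05, and genes among the largest rises and falls and D830015G02Rik are named.

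Matrix and scar genes stood higher in DTG hearts across most of their lists. In the fit of all hearts the largest calls were among regulators and minor components. The main fibrillar collagens were not called in that fit, but their calls depended on which hearts were fitted. Of 63 genes for collagens and other matrix proteins, 61 passed the expression minimum, and 15 rose and 0 fell. That is 24.6% of the tested members, against 4.21% of all rows. The median difference over the list was 0.45 log2, and the median of the list in each heart lay between 0.24 and 0.58 log2 above the WT mean in DTG hearts and between -0.07 and 0.13 in WT hearts. Cilp, a matrix protein known to be made by activated cardiac fibroblasts, had 11.7, 18.1 and 22.5 FPKM in DTG hearts, against 4.37, 5.41 and 5.72 FPKM in WT hearts (1.52 log2, SE 0.26, limma adjusted p = 0.00036). Mfap4, a microfibril-associated protein, had 23.9, 33.5 and 52.9 FPKM in DTG hearts, against 8.90, 10.8 and 17.2 FPKM in WT hearts. Timp1, an inhibitor of matrix metalloproteinases, had 4.55, 6.81 and 10.2 FPKM in DTG hearts and 1.40, 2.33 and 3.80 FPKM in WT hearts. Fbln2, a basement membrane and elastic fibre protein, averaged 36.4 ± 4.87 FPKM in DTG and 20.5 ± 3.32 FPKM in WT hearts (SD, n = 6; adjusted p = 0.0096). Ltbp3, which binds latent TGF-beta, averaged 18.1 ± 1.51 FPKM in DTG and 11.6 ± 1.26 FPKM in WT hearts (SD, n = 6; adjusted p = 0.019).

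The fibrillar collagens had higher means in DTG hearts without passing the test. Col1a1 averaged 22.1 ± 3.18 FPKM in DTG and 13.7 ± 4.10 FPKM in WT hearts (SD, n = 6; 0.69 log2, limma adjusted p = 0.23). Col3a1 averaged 70.7 ± 20.9 FPKM in DTG and 45.9 ± 10.6 FPKM in WT (0.59 log2, adjusted p = 0.21), and Postn, a matricellular protein of activated fibroblasts, 32.5 ± 10.1 FPKM in DTG and 18.9 ± 1.54 FPKM in WT (0.70 log2, adjusted p = 0.17). All 3 passed when only DTG and WT hearts were fitted (limma adjusted p = 0.0068, 0.030 and 0.0091). They also passed without OGT_TG replicates 3 and 6 (limma adjusted p = 0.0057, 0.010 and 0.0027), with the same log2 differences. The fit of all hearts uses 1 spread per gene for all genotypes. The SD in OGT_TG hearts was 43.7, 90.2 and 122 FPKM for Col1a1, Col3a1 and Postn. Of 18 myofibroblast and scar markers, 16 were tested, 7 rose (43.8%, against 4.21% of all rows) and 0 fell, with a median of 0.73 log2. They included Acta2, smooth muscle actin, at 110 ± 18.2 FPKM in DTG and 70.5 ± 13.4 FPKM in WT (SD, n = 6; 0.64 log2, adjusted p = 0.013). Of 17 tested fibroblast markers 4 rose (23.5%) and 0 fell, with a median of 0.27 log2. Pi16, a marker of adventitial fibroblasts, rose by 0.79 log2 (adjusted p = 0.011), whereas the general fibroblast markers Pdgfra and Dcn differed by 0.10 log2 each (adjusted p = 0.61 and 0.54). The adjusted p of Mfap5, a microfibril protein of the same lists that rose by 0.77 log2, was 0.025 with all hearts, 0.057 without DTG replicate 2 and 0.051 without WT replicate 1. In these bulk samples more cells of a type and more RNA per cell cannot be told apart. Summed FPKM of the scar markers was 219 to 305 in DTG and 135 to 184 in WT hearts, and of the fibroblast markers 1457 to 1903 in DTG and 1288 to 1535 in WT hearts.

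Among the stress genes of the heart, 8 of the 21 tested members of a list of 24 rose (38.1%, against 4.21% of all rows) and 0 fell, with a median of 0.57 log2. The matrix genes Timp1 and Cilp are counted in this list as well. Uchl1, a deubiquitinase known to rise in stressed heart muscle, had 14.3, 14.9 and 18.4 FPKM in DTG hearts, against 4.76, 5.87 and 7.10 FPKM in WT hearts (1.29 log2, SE 0.25, limma adjusted p = 0.0010). It also marks neurons. Summed FPKM of the Schwann cell and neuronal markers, Uchl1 included, was 48.2 to 53.9 in DTG and 37.6 to 44.2 in WT hearts. None of these markers was at 0 in all 12 hearts. The median over the 11 tested ones overlapped between the groups. It lay at -0.15 to 0.26 log2 from the WT mean in DTG hearts and at -0.08 to 0.09 in WT hearts. The part of such cells in the result was not tested. Flnc, filamin C, which crosslinks actin at the Z-disc, averaged 67.5 ± 12.6 FPKM in DTG and 40.7 ± 6.80 FPKM in WT (SD, n = 6; 0.71 log2, adjusted p = 0.0086). The natriuretic peptides, the usual markers of cardiac wall stress, were not higher. Nppa had 1542, 2070 and 2438 FPKM in DTG hearts and 2180, 2501 and 2999 FPKM in WT hearts (-0.30 log2, adjusted p = 0.54). Nppb had 151, 161 and 395 FPKM in DTG hearts and 163, 290 and 427 FPKM in WT hearts (-0.47 log2, adjusted p = 0.31). Both ranges overlapped. Ankrd1, a stress-responsive ankyrin repeat protein, differed by 0.39 log2 (adjusted p = 0.18). Acta1, the skeletal actin re-expressed in stressed ventricles, was 1.01 log2 higher (adjusted p = 0.040), a call lost without DTG replicate 2, 3 or 4 and without WT replicate 1, 5 or 6 (adjusted p = 0.062 to 0.12).

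**Figure D3:**
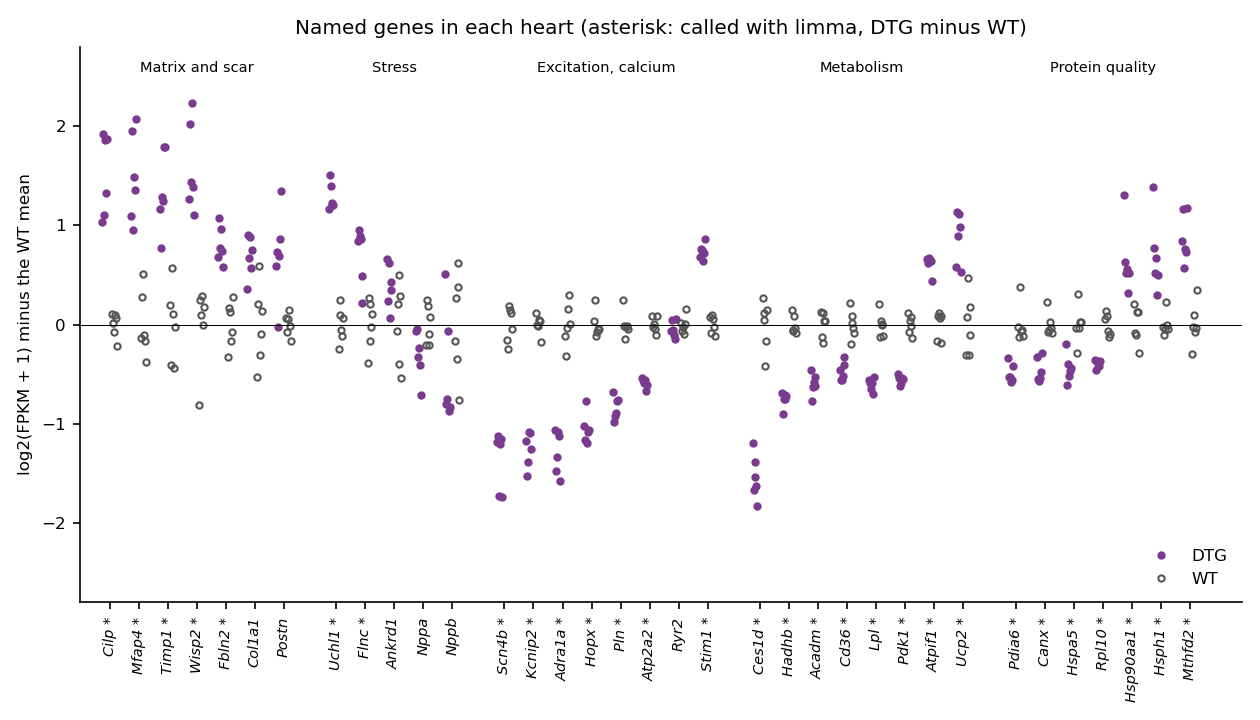
Each point is 1 heart, plotted as log2(FPKM + 1) minus the mean of the 6 WT hearts, with DTG filled and to the left of WT, which is open; an asterisk marks genes called with limma. The matrix genes Cilp, Mfap4 and Timp1 were separated from WT upward and Scn4b, Kcnip2, Adra1a, Hopx, Pln and Atp2a2 downward, while Nppa, Nppb and Ryr2 overlapped.

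Among genes that drive calcium cycling and repolarisation, some fell and others did not pass the test. Of 35 calcium-handling genes, all tested, 12 fell and 2 rose, which is 34.3% falling against 11.4% of all rows. Between 8 and 10 fell and 2 rose under the other scalings. Pln, phospholamban, the inhibitor of the sarcoplasmic reticulum calcium pump, had 1677, 1873 and 2068 FPKM in DTG hearts, against 3006, 3272 and 3957 FPKM in WT hearts (-0.84 log2, SE 0.15, limma adjusted p = 0.00049). Atp2a2, the pump SERCA2 itself, had 2795, 2980 and 3053 FPKM in DTG hearts, against 4142, 4414 and 4728 FPKM in WT hearts (-0.59 log2, SE 0.12, adjusted p = 0.0012). The groups did not overlap in either gene. Sln, sarcolipin, another inhibitor of the pump that marks atrial tissue, fell by 0.66 log2 (adjusted p = 0.011). Summed FPKM of atrial and conduction markers overlapped, at 3181 to 4903 in DTG and 4615 to 6044 in WT hearts. The junctional proteins Jph1 and Trdn fell by 0.45 and 0.38 log2. Camk2b and Camk2d, isoforms of the calcium-calmodulin kinase, fell by 0.68 and 0.36 log2. Ryr2, the calcium release channel, averaged 130 ± 7.41 FPKM in DTG and 134 ± 8.60 FPKM in WT hearts (SD, n = 6; -0.04 log2, adjusted p = 0.79). The genes that rose were Stim1, the calcium sensor of store-operated entry, at 13.2, 14.2 and 15.6 FPKM in DTG hearts and 7.43, 8.24 and 8.76 FPKM in WT hearts (0.74 log2, SE 0.06, adjusted p = 1.7e-08), and Casq1, the calsequestrin of skeletal muscle (0.58 log2, adjusted p = 0.0052).

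Of 43 ion channel and gap junction genes, 35 were tested, and 10 fell (28.6%, against 11.4% of all rows) and 3 rose (8.57%, against 4.21%). Kcnip2, a subunit of the channels of the transient outward potassium current, had 38.6, 48.3 and 52.98 FPKM in DTG hearts, against 100.0, 114 and 123 FPKM in WT hearts (-1.25 log2, SE 0.15, limma adjusted p = 6.9e-06), and Kcnd3, a pore-forming subunit of that current, fell by 0.41 log2 (adjusted p = 0.0068). Scn4b had 5.46, 8.45 and 8.96 FPKM in DTG hearts and 17.2, 21.2 and 23.6 FPKM in WT hearts (adjusted p = 0.00010), with no overlap. Kcnv2, a modifier of potassium channels, fell by 0.91 log2, Scn4a, the sodium channel of skeletal muscle, by 0.74, Abcc9, the SUR2 subunit of ATP-sensitive potassium channels, by 0.69, and Hcn2, a pacemaker channel, by 0.53. Scn10a, the sodium channel Nav1.8, rose by 0.80 log2 (adjusted p = 0.0087), as did Atp1b1, a sodium pump subunit, by 0.32 log2 (adjusted p = 0.00022). The main ventricular connexin, Gja1, differed by -0.05 log2 (adjusted p = 0.72). Of 30 tested adrenergic and cAMP genes 3 fell (10.0%) and 1 rose (3.33%), shares near the 11.4% and 4.21% of all rows, so the counts say nothing particular of this list. Of its single genes, Adra1a had 1.76, 2.53 and 2.95 FPKM in DTG hearts, against 5.65, 7.20 and 9.16 FPKM in WT hearts, and Grk5, a kinase that desensitises such receptors, fell by 0.62 log2 (adjusted p = 0.011). Crem, a cAMP-responsive repressor, rose by 0.39 log2 (adjusted p = 0.011), and the beta-1 receptor gene Adrb1 differed by 0.08 log2 (adjusted p = 0.68).

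Of 27 tested cardiac transcription factors, 6 fell (22.2%, against 11.4% of all rows) and 0 rose, with a median of -0.09 log2. Hopx, a homeodomain-like cofactor of cardiomyocytes, had 101, 110 and 136 FPKM in DTG hearts, against 215, 226 and 276 FPKM in WT hearts (-1.05 log2, SE 0.20, limma adjusted p = 0.00079). Gata6 and the ventricular factor Irx4 fell by 0.36 and 0.35 log2, whereas Gata4 differed by -0.09 log2 (adjusted p = 0.32). Of 28 tested sarcomere genes 5 fell (17.9%) and 1, Acta1, rose. The list median was -0.05 log2 and turned to between 0.00 and 0.02 log2 under the other scalings, so the list as a whole had no stable direction. Myh7b, a slow myosin heavy chain, fell by 0.94 log2 (adjusted p = 0.00058) and Myom2, an M-band protein, by 0.42 (adjusted p = 0.0013). Tnnt2, cardiac troponin T, averaged 6454 ± 599 FPKM in DTG and 8293 ± 549 FPKM in WT hearts (SD, n = 6; -0.36 log2, adjusted p = 0.00057), a call lost under quantile normalization (adjusted p = 0.15). Outside that list Tnnt1, the slow skeletal troponin T, rose, with 21.2, 26.0 and 30.0 FPKM in DTG hearts and 12.2, 15.0 and 17.9 FPKM in WT hearts (0.76 log2, adjusted p = 0.00027). Summed FPKM of the 16 ventricular cardiomyocyte markers, which include Tnnt2 and Irx4, was 53397 to 59403 in DTG and 65368 to 70940 in WT hearts, without overlap. None of these markers was at 0 in all 12 hearts. Their median in each heart did overlap, at -0.33 to -0.06 log2 from the WT mean in DTG hearts and -0.10 to 0.10 in WT hearts. The median difference was -0.09 log2 as deposited and between -0.04 and 0.00 under the other scalings. The part of cardiomyocyte content in these falls was not tested.

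Many genes of fatty acid uptake and oxidation, the main energy source of the adult heart, fell in DTG hearts. Of 33 tested genes of that list 15 fell and 0 rose, which is 45.5% against 11.4% of all rows. In 16 of the 33 every DTG heart lay below every WT heart, against 6.57% of all tested rows with such a separation. The median was -0.30 log2, and under the other scalings 8 to 12 fell, 0 rose and the median stayed between -0.25 and -0.23. Hadhb, the thiolase subunit of the mitochondrial trifunctional protein, had 739, 828 and 852 FPKM in DTG hearts, against 1298, 1339 and 1523 FPKM in WT hearts (-0.76 log2, SE 0.11, limma adjusted p = 9.5e-05). Acadm, the medium-chain acyl-CoA dehydrogenase, had 510, 575 and 636 FPKM in DTG hearts and 765, 894 and 953 FPKM in WT hearts (-0.60 log2, adjusted p = 0.00076). Hadh fell by 0.54 log2 (adjusted p = 0.0033). The fatty acid transporter Cd36 averaged 470 ± 30.7 FPKM in DTG and 653 ± 65.4 FPKM in WT hearts (SD, n = 6; -0.47 log2, adjusted p = 0.0020). Lpl, the lipase that frees fatty acids from lipoproteins and a member of the PPAR target list, averaged 1160 ± 51.5 FPKM in DTG and 1766 ± 151 FPKM in WT (-0.60 log2, adjusted p = 8.8e-05). Acsl6, a long-chain acyl-CoA synthetase, fell by 0.93 log2 (adjusted p = 0.0014). Cpt2 of the carnitine shuttle differed by -0.14 log2 (adjusted p = 0.31). Cpt1b shares a joined row with BC090627 and Chkb, and that row had 269 ± 10.96 FPKM in DTG and 327 ± 27.6 FPKM in WT hearts (SD, n = 6; adjusted p = 0.015, but 0.071 under median-of-ratios scaling).

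Of 36 tested subunits and assembly factors of complex I, 4 fell and 0 rose, which is 11.1% falling against 11.4% of all rows, and the median of -0.04 log2, equal to that of all rows, turned to between 0.01 and 0.05 log2 under the other scalings. Ndufa3 was the largest fall, at 894 ± 46.0 FPKM in DTG and 1187 ± 49.5 FPKM in WT hearts (SD, n = 6; -0.41 log2, limma adjusted p = 0.00012). Of 43 tested genes of complexes II to V 2 fell (4.65%) and 1 rose (2.33%). The one that rose was Atpif1, the inhibitor of the ATP synthase, with 300.3, 346 and 353 FPKM in DTG hearts and 194, 233 and 240 FPKM in WT hearts (0.62 log2, SE 0.07, adjusted p = 4.7e-06), with no overlap. Of 33 tested TCA cycle and pyruvate genes 6 fell (18.2%) and 0 rose, with a median of -0.18 log2. Pdk1, a kinase that inhibits pyruvate dehydrogenase, had 36.0, 37.9 and 39.1 FPKM in DTG hearts and 50.4, 56.1 and 60.5 FPKM in WT hearts (-0.55 log2, SE 0.05, adjusted p = 5.1e-08). The dehydrogenase subunit Pdha1 and the cycle enzymes Idh2 and Ogdh fell by 0.40, 0.44 and 0.42 log2.

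Other fuel pathways moved in part. Of 31 tested genes of glycolysis and glycogen 3 rose (9.68%, against 4.21% of all rows) and 2 fell (6.45%, against 11.4%), with a median of 0.13 log2, and among the rises were Pgam1 by 0.45 log2 (limma adjusted p = 0.0047) and Ldha by 0.25 log2 (adjusted p = 0.0083). Between 6 and 8 rose under the other scalings. Of 24 tested genes of branched-chain amino acid and ketone catabolism 5 fell (20.8%) and 0 rose, among them Slc16a7, a carrier of pyruvate and ketone bodies, by 0.81 log2, Auh by 0.43 and Bckdk, the kinase that restrains branched-chain oxidation, by 0.40. Of 27 tested sterol and fatty acid synthesis genes 1 rose (3.70%) and 6 fell (22.2%). The genes that fell were Scd4, a fatty acid desaturase whose call (-0.83 log2) was lost without DTG replicate 1, 3 or 4 or WT replicate 3, 4 or 5 (adjusted p = 0.059 to 0.072), and 5 enzymes of the sterol chain. Among these were Fdps, at 8.54 ± 1.08 FPKM in DTG and 13.97 ± 0.975 FPKM in WT (SD, n = 6; -0.65 log2, adjusted p = 2.1e-05), Cyp51 (-0.62 log2, adjusted p = 5.6e-05) and Idi1 (-0.51 log2, adjusted p = 0.0013). Of 24 tested PPAR target and lipid droplet genes 4 fell (16.7%), with Ces1d and Lpl among them, and 2 rose (8.33%). The rises were Ucp2, an uncoupling protein homologue, at 31.5 ± 5.71 FPKM in DTG and 16.8 ± 3.89 FPKM in WT (0.87 log2, adjusted p = 0.00031), and Cidea, a lipid droplet protein, at 36.0 ± 3.86 FPKM in DTG and 23.7 ± 2.13 FPKM in WT (SD, n = 6; 0.58 log2, adjusted p = 6.4e-05). Cidea is an adipocyte marker as well. Of the 16 adipocyte markers 13 were tested, 11 of them had a higher mean in DTG hearts and the median difference was 0.61 log2 (0.64 to 0.65 under the other scalings), with Cidea the only call. The median of these markers in each heart overlapped, at 0.05 to 0.82 log2 from the WT mean in DTG hearts and -0.41 to 0.98 in WT hearts. Their summed FPKM went the other way, at 2017 to 2527 in DTG and 2666 to 3067 in WT, and most of it was Cox7a1, a cytochrome oxidase subunit of heart and brown fat (2163 ± 172 FPKM in DTG and 2668 ± 167 FPKM in WT; SD, n = 6; adjusted p = 0.13). The part of adipocytes in these values was not tested.

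Genes of protein folding divided by compartment, a split of the chaperone list made after the values were seen. Of its 16 members of the endoplasmic reticulum (ER) 15 were tested, 11 fell and 0 rose, with a median of -0.38 log2. Of its 17 members of other compartments 14 were tested, 0 fell and 6 rose, with a median of 0.19 log2. Over the whole chaperone list 37.9% of the tested members fell and 20.7% rose, against 11.4% and 4.21% of all rows. ER chaperones are known to be induced together through the ER stress response element, in which the factors NF-Y and ATF6 bind CCAAT and CCACG on either side of a spacer of 9 bases. The promoter windows of RefSeq (GRCm38.p6, 250 bases before to 50 after each start) were searched for this motif on both strands. It was present in 6 of the 9 fallen ER genes with an entry, in 1 of the other 5 ER genes of the list with an entry, and in 37 of 27025 gene symbols overall (0.137%). The element is known from ER chaperone genes, so its excess over all symbols says nothing of DTG hearts. The division into fallen and other ER genes was taken from these same values, and these shares were not tested against each other. The ER gene with the motif that did not fall was Dnajc3 (-0.05 log2, limma adjusted p = 0.70). Its site and those of the fallen Hsp90b1 and Creld2 are not shown. The sites of the other fallen genes are shown 5′ to 3′ on the strand of the gene with the ends of the motif in capitals. In Calr the motif reads from the opposite strand.
Pdia6, chr12:17266471-17266529 (+): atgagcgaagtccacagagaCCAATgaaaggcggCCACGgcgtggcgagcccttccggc
Canx, chr11:50325780-50325838 (-): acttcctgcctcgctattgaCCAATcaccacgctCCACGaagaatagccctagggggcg
Hspa5, chr2:34772005-34772063 (+): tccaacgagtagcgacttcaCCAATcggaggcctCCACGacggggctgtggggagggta
Calr, chr8:84847055-84847113 (-): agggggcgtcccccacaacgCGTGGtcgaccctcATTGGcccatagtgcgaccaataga
The motif began 98, 145, 65 and 162 bases before the annotated start in Pdia6, Canx, Hspa5 and Calr. A match describes these letters only and shows no binding.

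Pdia6, a protein disulfide isomerase, had 35.7, 37.0 and 42.4 FPKM in DTG hearts, against 49.4, 51.6 and 70.3 FPKM in WT hearts (-0.49 log2, SE 0.09, limma adjusted p = 0.00042). Canx, calnexin, a lectin chaperone of glycoproteins, had 74.6, 77.8 and 90.8 FPKM in DTG hearts, against 104, 108 and 130 FPKM in WT hearts (-0.46 log2, SE 0.08, adjusted p = 0.00042). Both genes were separated between the groups. Hspa5, the master ER chaperone BiP, had 175, 195 and 234 FPKM in DTG hearts and 220, 267 and 331 FPKM in WT hearts (-0.44 log2, SE 0.11, adjusted p = 0.0060), with the highest DTG heart inside the WT range. Hyou1, Manf and Xbp1, the last the transcription factor of the unfolded protein response, fell by 0.42, 0.46 and 0.34 log2. The calls of Hsp90b1 (-0.39 log2) and Dnajb9 (-0.38 log2) did not hold when libraries were scaled to equal FPKM sums (adjusted p = 0.071 and 0.054), and that of Hsp90b1 also under quantile normalization (adjusted p = 0.077). Those of Sdf2l1, Calr and Creld2 (-0.52, -0.28 and -0.33 log2) were lost with an equal sum (adjusted p = 0.052, 0.13 and 0.10; those of Calr and Creld2 under the other scalings too) and without DTG replicate 2 (adjusted p = 0.055, 0.069 and 0.050), DTG replicate 3 (0.052, 0.061 and 0.083) or WT replicate 3 (0.060, 0.057 and 0.085). The call of Sdf2l1 was also lost without DTG replicate 4 (adjusted p = 0.066) or WT replicate 5 (0.057), and that of Creld2 without DTG replicate 4 or 6 or WT replicate 1, 2, 4 or 6 (0.051 to 0.095). The number of fallen members of the whole chaperone list was 11 as deposited and 6 to 9 under the other scalings. Outside the list, 8 tested genes held the motif, and 1 of them fell, Alg12, an enzyme of N-glycan assembly (-0.22 log2, adjusted p = 0.032). Of all rows 11.4% fell, so this count says nothing particular of these genes. That call was lost without DTG replicate 4 or 6, without WT replicate 3, 4 or 6 (adjusted p = 0.055 to 0.080) and under all 3 scalings (0.095 to 0.14).

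Several cytosolic and small heat shock proteins rose in DTG hearts. Hsp90aa1, the inducible cytosolic HSP90, had 78.0, 91.2 and 156 FPKM in DTG hearts and 51.1, 63.6 and 72.4 FPKM in WT hearts (0.64 log2, SE 0.14, limma adjusted p = 0.0023). Hsph1, an HSP70 exchange factor, had 21.7, 27.0 and 47.3 FPKM in DTG hearts and 16.1, 17.1 and 20.6 FPKM in WT hearts (0.69 log2, adjusted p = 0.0012). In both genes DTG replicate 1 was the highest and the groups did not overlap. The small heat shock proteins Hspb1 and Hspb6 rose by 0.77 and 0.41 log2 (adjusted p = 0.014 and 0.00048). Of 21 tested genes of the integrated stress response, serine and folate list, 5 rose (23.8%, against 4.21% of all rows) and 2 fell (9.52%, against 11.4%). Mthfd2, a mitochondrial folate enzyme, rose by 0.87 log2 (adjusted p = 2.8e-05), the stress factor Ddit3, also called CHOP, by 0.53 (adjusted p = 0.0031) and the amino acid transporter Slc7a5 by 0.44 (adjusted p = 0.0037). Shmt2, the mitochondrial serine hydroxymethyltransferase, fell by 0.53 log2 (adjusted p = 0.0039).

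Of 56 tested genes for cytosolic ribosomal proteins, 29 fell and 0 rose, which is 51.8% against 11.4% of all rows, with a median of -0.22 log2. The members ran from -0.56 to 0.17 log2, 4 of them had a higher mean in DTG hearts and 27 were not called. Between 14 and 23 fell and 0 rose under the other scalings, with medians of -0.17 to -0.15 log2. Rpl10 had 379, 399 and 406 FPKM in DTG hearts, against 478, 520 and 573 FPKM in WT hearts (-0.39 log2, SE 0.06, limma adjusted p = 0.00015), and Rpl9, Rps4x and Rpl7 fell by 0.38, 0.37 and 0.36 log2 with no overlap between the groups. Ribosomal protein genes have many processed pseudogenes, so shared reads could be divided among copies. Of 37 tested splicing factors and RNA-binding proteins 6 fell (16.2%) and 0 rose. Rbfox1, a splicing regulator of muscle and neurons, had 7.06, 8.67 and 8.96 FPKM in DTG hearts, against 13.6, 15.1 and 16.7 FPKM in WT hearts (-0.78 log2, SE 0.20, adjusted p = 0.0081), and Rbm20, which controls titin splicing, fell by 0.33 log2 (adjusted p = 0.0010).

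Of 28 tested p53 targets and cell death regulators 3 rose (10.7%, against 4.21% of all rows) and 1 fell (3.57%, against 11.4%). Cdkn1a had 17.4, 18.7 and 20.7 FPKM in DTG hearts, against 6.53, 7.62 and 16.5 FPKM in WT hearts (adjusted p = 0.0012 with limma), and Phlda3, a p53-induced inhibitor of AKT, rose by 0.84 log2 (adjusted p = 0.0016). Sesn1, another p53 target, fell by 0.46 log2 (adjusted p = 0.00063). Of 31 tested antioxidant genes 3 rose (9.68%), among them Gclm of glutathione synthesis by 0.54 log2 and the thioredoxin reductase Txnrd1 by 0.27, and 5 to 7 rose under the other scalings. Of 35 tested ubiquitin, lysosome and autophagy genes 5 fell (14.3%) and 2 rose (5.71%), near the shares of all rows, so the counts say nothing particular of this list. Asb5 had 6.15, 8.41 and 13.0 FPKM in DTG hearts and 18.5, 25.4 and 27.8 FPKM in WT hearts, the related Asb14 fell by 0.63 log2, and the autophagy receptor Sqstm1 rose by 0.38 log2 (adjusted p = 0.0043). Of 25 tested hypoxia and angiogenic genes 5 fell (20%) and 0 rose, and the median of the list lay between -0.15 and -0.10 log2 from the WT mean in DTG hearts and between -0.03 and 0.05 in WT hearts, without overlap. Its largest falls included Pdk1 and Egln1, the oxygen sensor PHD2, at 92.4 ± 6.62 FPKM in DTG and 126 ± 5.24 FPKM in WT hearts (SD, n = 6; -0.45 log2, adjusted p = 2.7e-06).

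The immune lists differed in their counts, which were not tested against each other. Of 22 tested macrophage and monocyte markers 0 rose and 0 fell with limma at the adjusted threshold, and the medians of single DTG hearts ran from -0.10 to 0.38 log2. The macrophage genes Cd68 and C1qa differed by 0.20 and 0.34 log2 (adjusted p = 0.59 and 0.41). Of 28 tested genes of inflammation 1 rose and 1 fell (3.57% each). Ccl2, a monocyte chemokine, had 2.37, 3.61 and 5.16 FPKM in DTG hearts and 1.35, 1.92 and 2.34 FPKM in WT hearts (0.67 log2, adjusted p = 0.0077), and Ccl11, eotaxin, averaged 1.41 ± 0.918 FPKM in DTG and 4.26 ± 2.30 FPKM in WT hearts (SD, n = 6; -1.10 log2, adjusted p = 0.0017). Of 37 tested interferon and antigen presentation genes 6 rose (16.2%, against 4.21% of all rows) and 0 fell, 32 had a higher mean in DTG hearts and the median was 0.16 log2. Under the other scalings 7 to 8 rose. Those that rose included Irf7 by 0.66 log2 (adjusted p = 0.0053) and Ifit2 by 0.40 (adjusted p = 0.0092). The median of that list spread from 0.01 to 0.48 log2 over DTG hearts and from -0.20 to 0.34 over WT hearts. Serping1, the inhibitor of complement C1, rose by 0.39 log2 (adjusted p = 0.0049). Among 14 tested endothelial markers 1 fell, the VEGF receptor Kdr by 0.33 log2 (adjusted p = 0.0037), while Pecam1 differed by -0.06 log2 (adjusted p = 0.65). Summed FPKM overlapped between the groups for macrophage markers (245 to 357 in DTG, 231 to 276 in WT) and for endothelial markers (1118 to 1423 in DTG, 1244 to 1636 in WT).

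**Figure D4:**
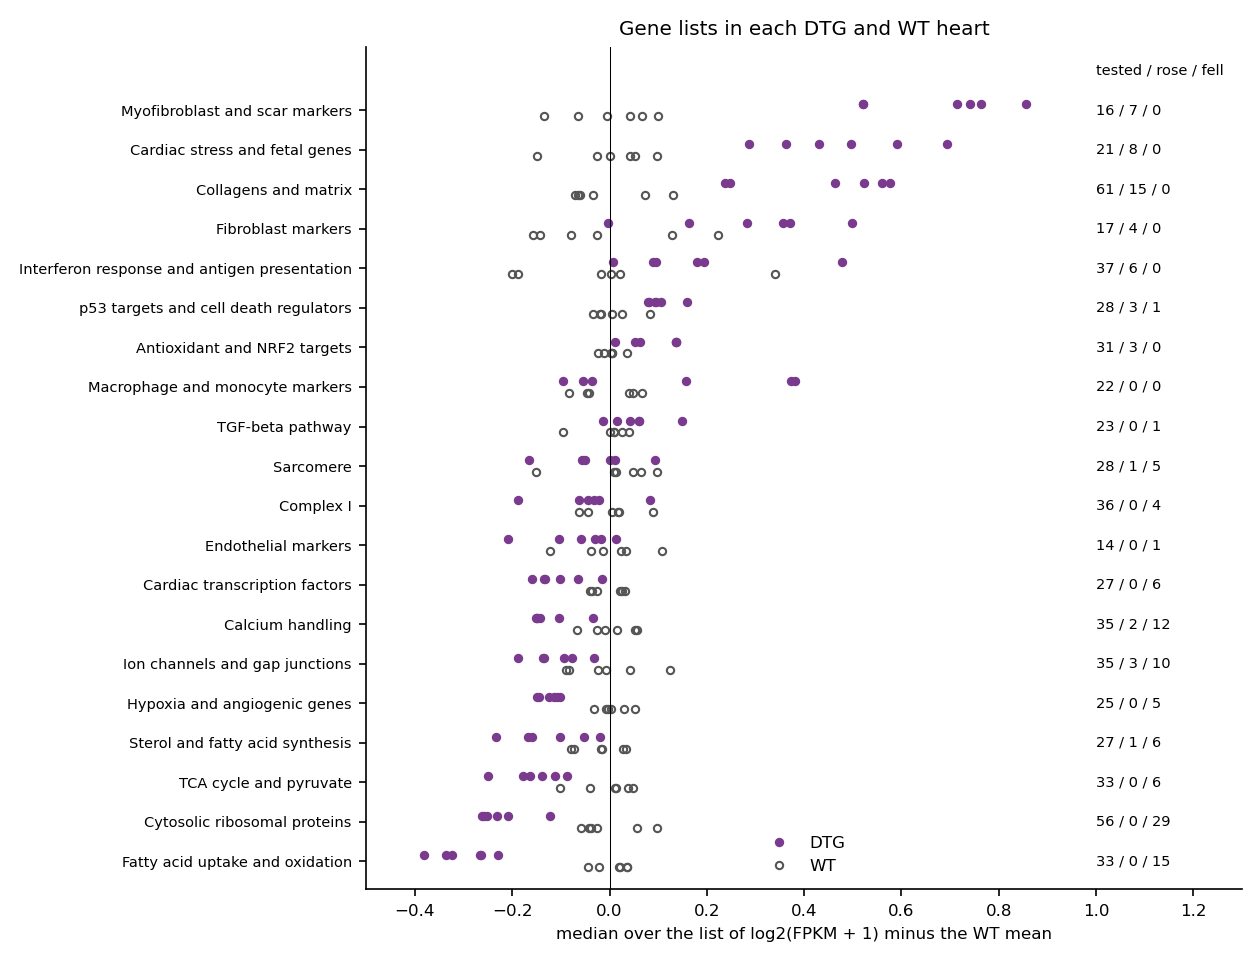
Each point is the median over a gene list of log2(FPKM + 1) minus the WT mean in 1 heart, with DTG filled above WT, which is open; the numbers give the members tested, risen and fallen in DTG. The scar, stress and matrix lists lay above WT, and the ribosomal protein and fatty acid oxidation lists below it, in all 6 DTG hearts, whereas sarcomere, complex I and macrophage lists overlapped.

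DTG hearts were also set beside the single transgenic hearts. The transgene levels were not equal between them. The OGT row averaged 4652 ± 449 FPKM in DTG and 1748 ± 737 FPKM in OGT_TG hearts (SD, n = 6 each, limma adjusted p = 0.00061). The OGA row averaged 3462 ± 294 FPKM in DTG and 4122 ± 732 FPKM in OGA_TG hearts (adjusted p = 0.038). DTG thus differs from OGT_TG in the OGT level as well as in the OGA transgene, and these cannot be told apart. The comparisons share their DTG and WT hearts, so values are given side by side. Against OGT_TG, 604 rows rose and 3274 fell in DTG (5.02% and 27.2%, together 32.3% of tested rows). Without OGT_TG replicates 3 and 6, the hearts with the lowest OGT level of that genotype, 288 rose and 2463 fell in DTG (2.41% and 20.7% of 11926 tested rows). Against OGA_TG, 1001 rose and 1174 fell (8.33% and 9.77%, together 18.1%). The matrix list had a median of 0.45 log2 in DTG minus WT, 1.06 in OGT_TG minus WT and -0.05 in OGA_TG minus WT, and 38 of its 61 tested members were lower in DTG than in OGT_TG. Without OGT_TG replicates 3 and 6 that count was 28, with 1 higher, and the median of DTG minus OGT_TG was -0.28 log2, against -0.68 with all 6 OGT_TG hearts. The scar markers had medians of 0.73, 2.205 and -0.05 log2 in the same order, and 14 of 16 were lower in DTG than in OGT_TG, as many as without those 2 hearts, where the median of DTG minus OGT_TG was -0.70 log2 and not -1.44. Of the 22 macrophage markers, 9 were lower in DTG than in OGT_TG and 0 higher, and 2 were lower without those hearts. For fatty acid oxidation the medians were -0.30, -0.57 and -0.04 log2, and 11 of 33 genes were higher and 1 lower in DTG than in OGT_TG, but 5 higher and 3 lower without those hearts. For complex I they were -0.04, -0.27 and -0.01 log2, with 20 of 36 genes higher in DTG than in OGT_TG, and 7 without those hearts. The ribosomal protein list ran the other way, with medians of -0.22 log2 in DTG, -0.02 in OGT_TG and -0.08 in OGA_TG against WT, 32 of 56 members lower in DTG than in OGT_TG (27 without those hearts) and 18 lower than in OGA_TG.

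**Figure D5:**
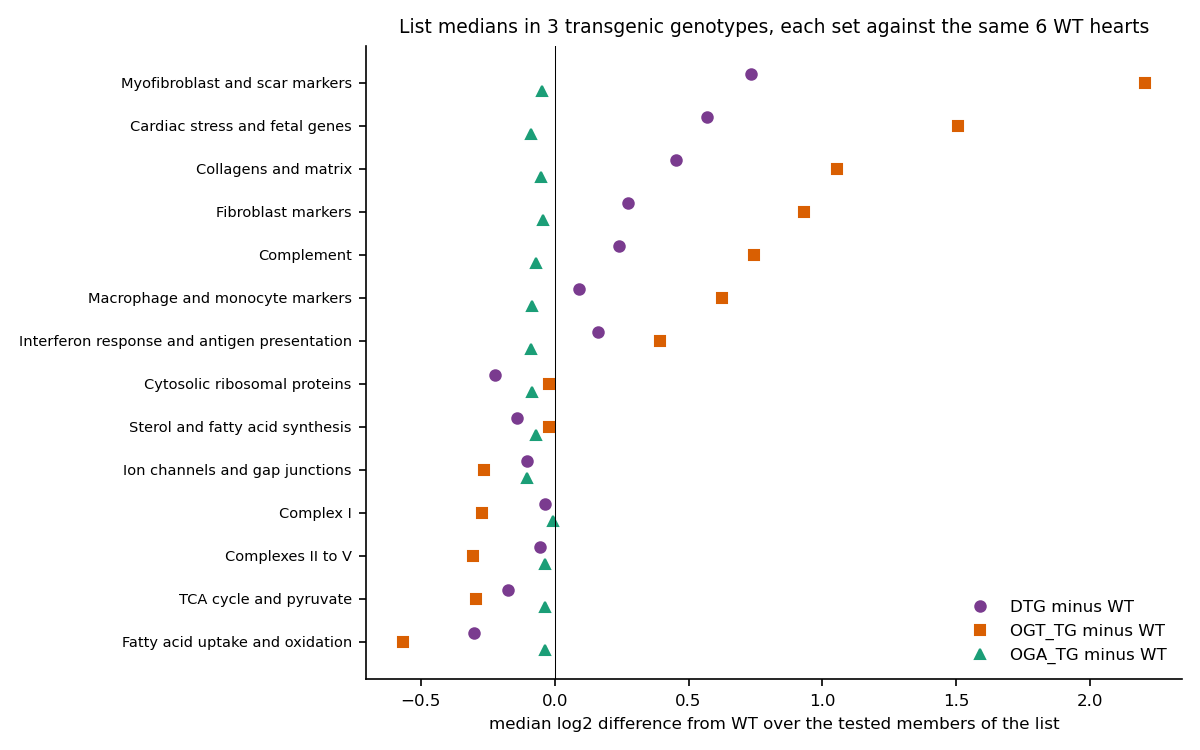
Median log2 difference from WT over the tested members of 14 gene lists, for DTG, OGT_TG and OGA_TG, each set against the same 6 WT hearts. For the scar, stress, matrix and fibroblast lists the DTG value lay between the OGT_TG and OGA_TG values, while for ribosomal proteins and sterol synthesis it was the lowest of the 3.

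Single genes showed each of these patterns. Cilp averaged 17.4 ± 5.05 FPKM in DTG hearts, 69.8 ± 45.7 FPKM in OGT_TG, 4.86 ± 0.353 FPKM in OGA_TG and 5.24 ± 0.525 FPKM in WT (SD, n = 6 each), and was lower in DTG than in OGT_TG by -1.76 log2 (limma adjusted p = 5.5e-05). Without OGT_TG replicates 3 and 6 the difference for Cilp was -1.22 log2 (adjusted p = 1.6e-05). Other genes depended more on those hearts. With all OGT_TG hearts the difference of DTG minus OGT_TG was -1.08 log2 for Mfap4, -0.75 for Fbln2, -0.80 for Uchl1 and 0.85 for Ces1d (adjusted p = 0.0088, 0.0082, 0.017 and 0.046). Without the 2 hearts these calls were lost, at -0.46, -0.33, -0.26 and 0.15 log2 (adjusted p = 0.058, 0.060, 0.099 and 0.42). Wisp2 kept its call at -0.76 log2, against -1.63 with all hearts (adjusted p = 0.032 and 0.0056). Adamtsl2 and Col1a1 were not called either way and turned from -0.80 and -0.55 log2 to 0.03 and 0.25. Slc38a1 averaged 11.6 ± 2.38 FPKM in DTG, 10.4 ± 1.16 FPKM in OGT_TG and 3.97 ± 0.888 FPKM in OGA_TG hearts, and DTG and OGT_TG did not differ detectably (0.12 log2, adjusted p = 0.28). Camk2b was low in both genotypes with the OGA transgene, at 1.94 ± 0.292 FPKM in DTG, 3.79 ± 0.532 FPKM in OGT_TG, 1.81 ± 0.285 FPKM in OGA_TG and 3.76 ± 0.864 FPKM in WT hearts.

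A few genes were beyond both single genotypes in DTG hearts. Tnnt1 averaged 26.2 ± 3.26 FPKM in DTG, 12.5 ± 2.59 FPKM in OGT_TG, 16.7 ± 2.76 FPKM in OGA_TG and 15.1 ± 2.40 FPKM in WT (SD, n = 6 each), with limma adjusted p of 1.1e-05 against OGT_TG and 0.0014 against OGA_TG. Aqp4, a water channel, averaged 3.20 ± 0.623 FPKM in DTG, 0.859 ± 0.459 FPKM in OGT_TG and 1.66 ± 0.183 FPKM in OGA_TG (adjusted p = 3.9e-06 and 0.0018), and Tmprss13, a membrane serine protease, 2.43 ± 0.453, 0.779 ± 0.407 and 0.329 ± 0.106 FPKM (adjusted p = 3.6e-05 and 3.4e-07). Pirt averaged 13.0 ± 3.19 FPKM in DTG, 6.96 ± 1.79 FPKM in OGT_TG and 4.79 ± 0.967 FPKM in OGA_TG hearts. On the low side, Scgb1c1 averaged 15.0 ± 2.94 FPKM in DTG, 31.3 ± 13.3 FPKM in OGT_TG and 44.5 ± 7.08 FPKM in OGA_TG hearts (adjusted p = 0.0064 and 0.00010). Ptgds, a prostaglandin D synthase, averaged 126 ± 36.0 FPKM in DTG, 199.6 ± 51.6 FPKM in OGT_TG, 335 ± 55.3 FPKM in OGA_TG and 248 ± 53.3 FPKM in WT hearts (adjusted p = 0.010 and 1.5e-05). Pdk1 had 37.6 ± 1.12 FPKM in DTG, 52.5 ± 3.04 FPKM in OGT_TG and 48.6 ± 1.27 FPKM in OGA_TG hearts (adjusted p = 1.0e-06 and 1.2e-05). These adjusted p-values were computed over all tested rows.

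The difference between DTG and WT was also compared between the sexes, with 3 hearts of each sex per group. The difference of the differences, male minus female, was called by limma in 0 of 12020 rows, with 173 rows at an unadjusted p under 0.05. That is a smaller share of rows than 0.05. In data simulated for that comparison, 74% of sex differences of 1 log2 and 98% of those of 2 log2 were recovered. The simulated noise was independent from gene to gene and had 1 spread per gene for all genotypes. The measured hearts need not follow this, so these shares may not hold for them. Fitted apart, male hearts gave 65 rises and 129 falls and female hearts 76 rises and 172 falls.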

How the data were processed

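RNA of 24 mouse hearts was sequenced from stranded poly(A) libraries, per the labels' protocols. The authors deposited 1 table of FPKM per gene, made with Cuffdiff 2.2.1 on mm10 after alignment with TopHat, per the submitters' processing notes, which also name FastQC, SAMtools and StringTie. It has 19664 rows, of which 4 with missing values were dropped and 343 join several genes. FPKM is relative to the library total, so a highly expressed transgene or a few abundant genes can shift all other values. Rows with at least 1 FPKM in at least 6 of 24 hearts (12020) were tested on log2(FPKM + 1) with limma 3.58.1 (R 4.3.3), with a mean-variance trend, 4 genotypes and sex as terms, and Benjamini-Hochberg adjustment over all tested rows at 0.05. The 4 enzyme rows also had an exact two-sided permutation test. Tables and figures were made with Python 3.11.15. Replicate numbers follow deposit order and name a heart only. The hearts come from different mice as far as the labels tell, and p-values measure the spread between them.

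Named genes were taken from the 15 largest rises and falls among called rows with no overlap and a mean of at least 2 FPKM (joined and predicted genes left out), from up to 4 members of each list, and from the rows that differed most from each single transgenic genotype. The comparison, the 51 gene lists and the named genes were chosen with earlier results of these data known. Alternatives were 3 scalings, a pseudocount of 0.1, a minimum of 5 FPKM or none, a threshold of 0.01, no sex term, each sex alone, only the groups compared, library weights, robust variance estimation and leaving hearts out. Whole read counts are not given by the table, so relative depth was estimated from the ratios of low values between hearts. Relative to WT replicate 1, 28.9% to 50.5% of the ratios of other hearts lay within 0.002 (natural log) of a ratio of whole numbers. The test was tried on simulated DTG and WT values of 12020 genes, where it recovered 75% of genes shifted by 0.5 log2 and 96% of those shifted by 1 log2. The simulated spread of a gene was the same in every genotype, which the measured hearts need not follow.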

Additional observations from a re-analysis of the deposited data

Results flagged for a closer look

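Among the 150 genes with values in the text, the 6 hearts of DTG and of WT were each searched for a highest or lowest heart far from the other 5, which flagged 32 of 300 groups. Chance alone flags about 1 in 20 groups, and the genes are not independent of each other. DTG replicate 1 was high in Hsp90aa1 (155.9 FPKM) and Hsph1 (47.3) and low in Ltbp3 (15.0 FPKM). DTG replicate 2 was high in Adamtsl2 (22.7 FPKM) and low in Hadhb (739 FPKM) and Asb14 (36.4). DTG replicate 3 was high in Scn10a (4.81 FPKM) and Hopx (136.4). DTG replicate 5 was low in Slc7a5 (1.72 FPKM). DTG replicate 6, which stood apart on the second principal component, was high in Sdc4 (22.3 FPKM), Ifit2 (11.8) and Idi1 (4.79) and low in Ttll1 (8.31 FPKM), Atpif1 (300.3) and Rbfox1 (7.06).

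WT replicate 1 was high in Tfpi (63.7 FPKM), Pln (3957), Canx (130.0) and Pdgfra (13.3) and low in Wisp2 (1.45 FPKM) and Idh2 (1104). WT replicate 2 was high in Hopx (276.3 FPKM) and Acta2 (97.7). WT replicate 3 was high in Adamtsl2 (5.84 FPKM), Pdia6 (70.3), Hyou1 (19.6), Irf7 (11.9) and Scd4 (25.9) and low in Gja1 (220.7 FPKM). WT replicate 4 was high in Hsph1 (20.6 FPKM), and WT replicate 6 was high in Hadh (433.6 FPKM) and low in Myom2 (403.1).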

How the results depend on the processing

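The count of 1878 called rows (506 rises, 1372 falls) ran from 1422 to 1943 when 1 DTG or WT heart was left out. Library weights gave 3553 (1033 rises, 2520 falls), male hearts alone 194 (65 and 129), female hearts alone 248 (76 and 172) and a threshold of 0.01 gave 911 (234 and 677). Falls numbered 731 with an equal sum of FPKM and 885 with quantile normalization, and rises 881 without OGT_TG replicates 3 and 6. For DTG against OGT_TG the count of 3878 became 2459 with only the groups compared and 2176 at 0.01, and 3061 to 4202 without 1 DTG heart. For DTG against OGA_TG the count of 2175 became 3874 with library weights and 1117 at 0.01, and 1727 to 2151 without 1 DTG heart. Single-sex fits hold fewer hearts and the threshold of 0.01 is stricter by construction. The fit takes 1 spread per gene from all 4 genotypes, so the spread of OGT_TG hearts enters the DTG minus WT tests. Without OGT_TG replicates 3 and 6 the DTG minus WT difference of a gene did not move (Col1a1, 0.69 log2 in both fits), yet 2804 rows were called. Other causes of these shifts were not tested. Of 150 genes in the text 132 were called, and 21 were called under each of 26 alternatives. None of them reversed its direction while called. An equal sum of FPKM lost 6 calls, median-of-ratios scaling 4, quantile normalization 5, no minimum on FPKM 3 and no sex term 1 (Acta1), and a pseudocount of 0.1 lost none. No paired analysis was possible because DTG and WT share no number in their titles. DTG shares no title number with OGT_TG or OGA_TG either. In every comparison of DTG, that with WT included, title number and genotype therefore cannot be told apart. OGT_TG shares its title numbers with WT. Some hearts within a genotype share a title number and were treated as separate hearts. What these numbers mark is not given in the labels. The table gives no read counts, so no counting interval can be stated, and with 6 hearts a group changes under 0.5 log2 are often missed.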
